A study of Mus musculus with 6 samples.

Results

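Ribosome biogenesis and RNA polymerase I (Pol I) factors were followed as 50 genes in mouse hearts with and without the RNase Z gene Elac2. The genes were found by their names in the authors' deposited table, and all 50 of them were present among the 51888 features of the count tables. All 50 passed the filter on low counts and were tested.

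Eukaryotic ribosomes are built in the nucleolus, where Pol I transcribes a long precursor of the ribosomal RNAs. Small nucleolar RNA-protein particles (snoRNPs) modify that precursor, and a large assembly called the small subunit processome cleaves and folds its first part. Further factors mature the small and the large subunit separately and accompany them out of the nucleus. In the heart, the output of this pathway is known to follow growth of the cardiomyocytes.

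RNA of whole hearts was sequenced from 3 control mice and 3 knockout mice on a C57BL/6 background, with 1 library of counts per mouse. Per the sample titles both groups were L/L, for a loxP-flanked exon of Elac2, and only the knockouts carried cre. The genotype label gives Elac2 +/+ for the controls and Elac2 -/- for the knockouts. The cre transgene was driven by the promoter of muscle creatine kinase, which is active in striated muscle, so the other cells of the heart are not targeted. Age, sex and other agents are not given in the labels, and the effect of cre cannot be told apart from that of the loss of Elac2.

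The libraries held 9850100 to 14461110 counts, and all 6 carry the same flow cell name in the labels. Elac2 was at 15.0, 14.0 and 13.0 CPM in the controls and at 5.36, 5.63 and 6.52 CPM in the knockouts. It was lower in every knockout than in any control, as the labels have it. Mitochondrial-encoded features took 49.3 to 61.1% of the counts of a control and 33.3 to 36.7% of those of a knockout. CPM values, counts per unit of library size, are therefore relative to a size scaled by the trimmed mean of M-values (TMM). Without that scaling the median log2 fold change of all tested features was 0.68 in place of -0.01, and that of the 50 genes was 1.44 in place of 0.75. Cardiomyocyte markers summed to 96049 to 97800 CPM in controls and 66050 to 67825 CPM in knockouts. None of the 8 marker lists had a gene at 0 in all libraries.

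Most of the 50 genes were higher in knockout hearts. A gene was called when its Benjamini-Hochberg adjusted p in edgeR's quasi-likelihood test, adjusted over all 14302 tested features, was under 0.05. By this rule 39 of the 50 rose, 0 fell and 11 were not called, while 18.7% of all tested features were called higher and 17.8% lower. Every knockout library lay above every control for 42 of the 50, against 26.2% of all tested features. The median log2 fold change was 0.75, and 49 of the 50 lay above the median of all tested features. The authors' deposited table called 38 of the 50 higher and 0 lower, beside 14.5% of its features called higher. In whole-heart RNA, more cells of a type and more RNA per cell cannot be told apart.

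Together the 50 genes took 0.158, 0.153 and 0.161% of the nuclear counts in the controls and 0.317, 0.290 and 0.283% in the knockouts. The 3 knockout shares all lay above the 3 control shares. These shares do not use the TMM factors, but they are relative to the total of nuclear counts. A change in abundant nuclear genes would shift them, and its part was not tested.

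**Figure D1:**
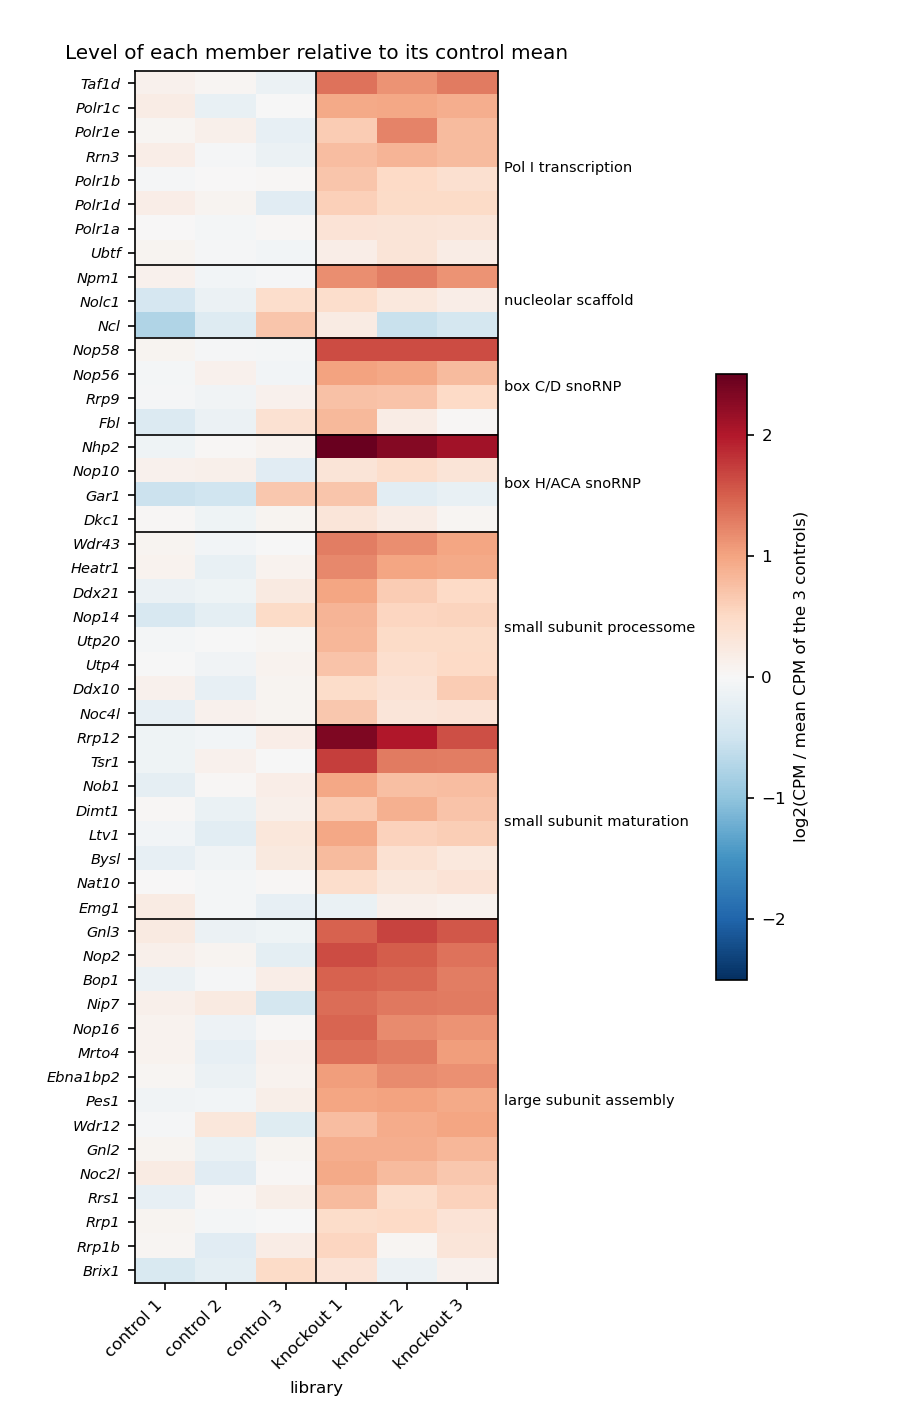
Level of each of the 50 genes (rows, by role) in each of the 6 libraries (columns), as log2 of its CPM over the mean CPM of the 3 controls. Red is above and blue below the control mean. Rows of Nhp2, Rrp12 and Nop58 are the darkest in the knockouts, while Ncl, Gar1 and Brix1 are blue or pale in knockouts 2 and 3.

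Near their start sites, before or after them, some of the genes hold motif letters that the choice of genes did not use. The stretches below are the 100 bases before a RefSeq start in GRCm38.p6, written along the gene's own strand. They show called genes with either kind of match and, in Gnl3, 1 without any. Capitals mark the E-box letters CACGTG, to which MYC-family proteins bind, and the ETS letters CCGGAAG or their reverse complement CTTCCGG. Matches that reach past the shown stretch are not marked. Emg1 and Gar1 are shown because they have ETS letters and were not called.

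Nop2, chr6:125131783-125131882, + strand: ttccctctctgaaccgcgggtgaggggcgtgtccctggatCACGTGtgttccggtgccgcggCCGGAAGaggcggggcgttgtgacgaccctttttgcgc
Rrn3, chr16:13780599-13780698, + strand: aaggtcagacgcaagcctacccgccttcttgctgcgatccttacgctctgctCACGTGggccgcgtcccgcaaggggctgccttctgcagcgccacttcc
Nhp2, chr11:51619673-51619772, + strand: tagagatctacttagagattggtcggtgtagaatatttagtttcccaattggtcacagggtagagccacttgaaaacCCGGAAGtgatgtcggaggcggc
Polr1c, chr17:46248046-46248145, - strand: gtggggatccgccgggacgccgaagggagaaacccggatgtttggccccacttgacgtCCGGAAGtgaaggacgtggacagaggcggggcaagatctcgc
Utp4, chr8:106893540-106893639, + strand: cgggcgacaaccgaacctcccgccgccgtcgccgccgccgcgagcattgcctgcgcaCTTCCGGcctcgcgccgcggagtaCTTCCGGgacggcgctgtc
Gnl3, chr14:31019132-31019231, - strand: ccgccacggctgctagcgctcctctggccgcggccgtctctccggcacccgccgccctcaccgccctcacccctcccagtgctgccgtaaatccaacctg
Emg1, chr6:124712179-124712278, - strand: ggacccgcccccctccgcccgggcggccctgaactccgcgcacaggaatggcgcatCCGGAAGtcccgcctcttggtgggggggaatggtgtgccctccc
Gar1, chr3:129831397-129831496, - strand: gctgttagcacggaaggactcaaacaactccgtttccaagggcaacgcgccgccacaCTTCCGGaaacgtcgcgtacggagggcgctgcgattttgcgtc

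Windows of 300 bases, from 250 before to 50 after the start, were found for 44 of the 50 genes in the RefSeq promoter table, as 53 windows. The ETS letters were in 18 of these windows (34.0%), against 8.86% of all windows in the table and 16.8% of windows of tested protein-coding genes. Among windows of all protein-coding genes called higher, the share was 22.85%. The E-box letters were in 8 of 53 windows (15.1%), against 7.15% of all windows, 9.72% of tested protein-coding ones and 13.3% of those called higher. The median GC content was 59.7% in the 53 windows, 60.7% in those of tested protein-coding genes and 52.7% in all windows. These shares are descriptions, and a match is not a binding site.

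The 8 genes with E-box letters were Ltv1, Nop2, Pes1, Rrn3, Tsr1, Utp20, Utp4 and Wdr43. The letters lay before the start in Nop2 and Rrn3, and after it in Ltv1, Pes1, Tsr1, Utp20, Utp4 and Wdr43. All 8 were called higher, with a median log2 fold change of 0.89, and of the other 36 genes with a window 26 were called, with a median of 0.66. Of the 17 genes with ETS letters 13 were called, with a median of 0.80, and of the 27 without them 21 were called, with a median of 0.66. Searched on both strands, the letters TGCGCATGC of NRF1, TGATGCAA of the composite site for ATF4 and C/EBP proteins, and AAGATGGC of YY1 were in 0 of the 53 windows. These 3 were rare in general, in 1.52%, 0.89% and 2.75% of all windows. None of the 5 motifs contains another.

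Pol I and its initiation factors were the first group, and 7 of its 8 genes rose, with a median log2 fold change of 0.67. Taf1d, a subunit of the factor SL1 that places Pol I at the rDNA promoter (chromosome 9, 15306214 to 15316991, + strand, in mm10), was at 33.1, 31.8 and 27.8 CPM in the controls. It was at 79.2, 67.5 and 76.3 CPM in the knockouts. Each knockout library was more than any control, and the log2 fold change was 1.27 (SE 0.12, adjusted p = 6.46e-05).

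Rrn3, known as TIF-IA, makes Pol I competent to initiate and responds to growth signals. Its 3 control libraries were at 48.5, 42.4 and 39.4 CPM and its knockouts at 73.7, 77.9 and 75.5 CPM. The knockouts lay close together and above all controls, with a log2 change of 0.80 (SE 0.12, adjusted p = 0.000644). Polr1c, a core subunit shared by Pol I and Pol III, rose by 0.93 (SE 0.15, adjusted p = 0.00142), from 6.47, 5.0 and 5.69 CPM to 11.0, 11.1 and 10.8 CPM. The groups of Polr1c did not overlap either.

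Among the other Pol I subunits, the initiation subunit Polr1e rose by 0.91 and Polr1d, the partner of Polr1c in both polymerases, by 0.51. The catalytic subunits Polr1b and Polr1a, the latter the largest of the enzyme, rose by 0.54 and 0.32. Polr1a had a narrow spread in both groups, 47.0 to 49.1 CPM in controls and 59.3 to 61.3 CPM in knockouts. Its adjusted p was 0.0297, and this call was lost when any control, knockout 2 or knockout 3 was left out, with values of 0.31 to 0.34 over all such fits. The call of Polr1d was lost without control 2 and without control 3, with values of 0.40 to 0.62.

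Ubtf, the architectural factor that keeps rDNA repeats open, was not called. Its controls were at 45.2, 42.2 and 41.1 CPM and its knockouts at 47.9, 53.8 and 48.5 CPM. The groups did not overlap, but the log2 fold change was 0.22 (SE 0.11, adjusted p = 0.130).

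The 3 abundant nucleolar scaffold proteins differed from each other, and 1 of them rose. Npm1, nucleophosmin, which forms the outer layer of the nucleolus (chromosome 11, 33152287 to 33163206, - strand), was at 58.4, 52.0 and 53.2 CPM in controls. In the knockouts it was at 122, 133 and 119 CPM, and its lowest knockout was above its highest control. The log2 fold change was 1.19 (SE 0.11, adjusted p = 6.68e-05). Per kilobase of merged exons Npm1 had the highest level of the 50 genes in both groups, 20.5 CPM per kb in controls and 46.7 CPM per kb in knockouts. It has 7 other genes with near-identical stretches, 6 of them pseudogenes. Those 7 held 1077 counts over the 6 libraries against 7763 for Npm1, so the split of some reads is uncertain. The same holds for Ddx21, Dimt1, Fbl, Mrto4, Nop56, Nop58, Pes1, Polr1d, Taf1d and Wdr12, which also have near-identical pseudogenes. The longest match to another gene was 1771 bases for Pes1, 1377 for Wdr12 and 984 for Fbl. Nip7, Nop58, Polr1b and Wdr12 had stretches near-identical to 126, 159, 82 and 165 other genes.

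Ncl, nucleolin, binds nascent ribosomal RNA and was not called. It was at 45.1, 60.8 and 122.8 CPM in the controls and at 87.8, 51.9 and 56.2 CPM in the knockouts. Control 3 was above every other library and the groups overlapped, with a log2 change of -0.22 (SE 0.33, adjusted p = 0.639). Without control 3 the Ncl value was 0.32 and still not called (adjusted p = 0.385).

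Nolc1, a phosphoprotein that chaperones snoRNPs, was at 11.5, 14.0 and 20.8 CPM in controls and at 20.8, 18.4 and 17.4 CPM in knockouts. Control 3 reached the level of the highest knockout, and the log2 fold change was 0.30 (SE 0.20, adjusted p = 0.265). Without control 3 Nolc1 was called, with a log2 fold change of 0.58.

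Proteins of the box C/D snoRNPs guide 2'-O-methylation of ribosomal RNA, and 3 of these 4 genes rose. Nop58, a core protein of the particle (chromosome 1, 59684971 to 59719044, + strand), was at 17.9, 16.9 and 16.6 CPM in controls and at 52.8, 53.1 and 53.2 CPM in knockouts. Its libraries lay close together within each group and far apart between groups. The log2 fold change was 1.63 (SE 0.11, adjusted p = 9.48e-06), which was higher than that of 97.5% of tested features. Nop56, which pairs with Nop58 in the particle, was at 14.0, 15.4 and 13.8 CPM in controls and at 29.1, 28.1 and 24.8 CPM in knockouts. Its groups did not overlap, and it rose by 0.92 (SE 0.12, adjusted p = 0.000437).

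Rrp9 belongs to the U3 particle, which is needed for cleavage of the precursor. It rose by 0.66 (SE 0.14, adjusted p = 0.00512), from 9.10, 8.78 and 9.99 CPM to 15.4, 15.2 and 13.2 CPM, without overlap of the groups. Fbl, fibrillarin, the methyltransferase itself, was at 5.27, 6.00 and 8.71 CPM in controls and at 11.7, 7.61 and 6.76 CPM in knockouts. Knockouts 2 and 3 were below control 3, and the log2 change of 0.41 (SE 0.25, adjusted p = 0.233) was not called. Fbl has 2 near-identical pseudogenes, so the split of its reads is uncertain.

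Box H/ACA snoRNPs guide pseudouridylation, and 1 of their 4 proteins rose. That was Nhp2, an RNA-binding subunit (chromosome 11, 51619735 to 51623714, + strand), at 3.24, 3.56 and 3.72 CPM in controls and at 19.3, 17.3 and 15.1 CPM in knockouts. The lowest knockout was several times the highest control. The log2 change of 2.31 (SE 0.17, adjusted p = 1.47e-05), or 4.95-fold, was the largest of the 50 genes and higher than that of 98.9% of tested features. Per kilobase, Nhp2 went from 3.06 to 15.0 CPM per kb.

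The other 3 proteins of the same particle were not called. Nop10, the smallest subunit, was at 16.2, 16.4 and 12.3 CPM in controls and at 18.8, 20.2 and 18.8 CPM in knockouts. Its groups did not overlap, with a log2 change of 0.36 (SE 0.14, adjusted p = 0.0738). Dkc1, the pseudouridine synthase, was at 10.8, 9.78 and 11.0 CPM and at 13.1, 11.9 and 11.0 CPM. Knockout 3 was just below control 3, and the log2 fold change was 0.19 (SE 0.14, adjusted p = 0.319).

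Gar1, which helps release the modified RNA, had few reads, 11 to 24 counts per control and 19 to 53 per knockout. It was at 1.20, 1.22 and 2.79 CPM in controls and at 2.81, 1.45 and 1.53 CPM in knockouts. Control 3 and knockout 1 were the high libraries of Gar1 and the groups overlapped. Its log2 fold change of 0.21 had an SE of 0.41 (adjusted p = 0.709), so at this depth a change of the size of most other members was not detectable.

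In the small subunit processome 7 of 8 genes rose, with a median log2 fold change of 0.64. Wdr43, a subunit of the UTPA complex that binds the precursor first, was at 21.8, 19.8 and 20.6 CPM in controls and at 50.4, 46.2 and 41.1 CPM in knockouts. The groups were well separated, with a log2 change of 1.15 (SE 0.12, adjusted p = 0.000108). Heatr1, a further UTPA subunit, rose by 1.05 (SE 0.13, adjusted p = 0.000266), from 20.7, 17.0 and 20.6 CPM to 44.7, 38.6 and 37.4 CPM. Its groups did not overlap, and neither did those of Utp4, the third UTPA subunit here, which rose less, by 0.55.

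Utp20 is a very large scaffold protein of the processome. It was at 23.5, 23.9 and 25.2 CPM in controls and at 43.3, 33.6 and 33.7 CPM in knockouts, a rise of 0.61 (SE 0.13, adjusted p = 0.00553). Knockout 1 was the highest library of Utp20. The RNA helicases Ddx21 and Ddx10 rose by 0.72 and 0.48, and the scaffold protein Nop14 by 0.67. Nop14 kept its call only when the library left out was control 3 or knockout 3, with values of 0.50 to 0.98 over all fits with 1 library left out. The call of Ddx10 was lost without control 2, control 3 or knockout 3 (0.40 to 0.55), and that of Utp4 without control 2 (0.46 to 0.62). Exons of the antisense gene Gm15522, which was not among the tested features, cover 5.27% of the exon bases of Nop14.

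Noc4l, the binding partner of Nop14, was not called. It was at 4.51, 5.56 and 5.46 CPM in controls and at 8.28, 6.39 and 6.52 CPM in knockouts. Its groups did not overlap, with a log2 change of 0.46 (SE 0.18, adjusted p = 0.0749).

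Of the 8 genes for maturation of the small subunit 7 rose, with a median log2 fold change of 0.75. Rrp12, a repeat protein that accompanies the subunits to the cytoplasm (chromosome 19, 41862851 to 41896173, - strand), was at 14.7, 15.1 and 17.8 CPM in controls. In the knockouts it was at 80.4, 63.2 and 48.1 CPM. Every knockout was far above the controls, but the knockouts differed among themselves more than those of Nop58. The log2 fold change was 2.02 (SE 0.19, adjusted p = 5.49e-05).

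Tsr1, a GTPase-like protein that blocks early entry of initiation factors, was at 10.7, 12.6 and 11.5 CPM in controls and at 38.2, 28.6 and 28.0 CPM in knockouts. It rose by 1.45 (SE 0.16, adjusted p = 0.000130) with no overlap. Exons of Srr on the other strand cover 32.3% of the exon bases of Tsr1, and no source used here states whether counting used strand. The Srr value was 0.22 and not called (adjusted p = 0.227).

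Nob1, the endonuclease that makes the mature end of the small subunit RNA, rose by 0.85 (SE 0.15, adjusted p = 0.00221). It was at 7.07, 8.45 and 9.29 CPM in controls and at 16.2, 14.0 and 14.2 CPM in knockouts, and the groups did not overlap. The rRNA methyltransferase Dimt1 rose by 0.76, the assembly factor Ltv1 by 0.73, the assembly factor Bysl by 0.51 and the rRNA acetyltransferase Nat10 by 0.36. The call of Bysl (adjusted p = 0.0498) was kept only when control 3 or knockout 3 was the library left out, with values of 0.34 to 0.65 over all such fits, and it was lost with RLE scaling (adjusted p = 0.0511) and a stricter filter (adjusted p = 0.0624). That of Nat10 (adjusted p = 0.0332) was lost without any control, knockout 2 or knockout 3 (0.32 to 0.40). Nat10 was also not called by DESeq2 (adjusted p = 0.0749) or in the authors' deposited table (adjusted p = 0.0749). The call of Ltv1 was lost without control 2 (0.60 to 0.89). Exons of Ccnd3, on the other strand, cover 9.37% of those of Bysl, and Ccnd3 was at -0.31 (adjusted p = 0.128). Exons of Kif2a, on the other strand, cover 31.9% of those of Dimt1, and Kif2a was at -0.47 (adjusted p = 0.0506).

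Emg1, the methyltransferase for a modified pseudouridine of the small subunit, was not called and had a fold change near 0. It was at 27.5, 23.0 and 20.7 CPM in controls and at 21.3, 26.1 and 25.1 CPM in knockouts. The groups overlapped fully, with a log2 change of 0.02 (SE 0.14, adjusted p = 0.933). Exons of Lpcat3, on the other strand, cover 7.21% of its exon bases, and Lpcat3 fell by 0.59 (adjusted p = 0.00593).

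Large subunit assembly was the largest group, and 13 of its 15 genes rose, with a median log2 fold change of 0.98. Gnl3, the GTPase nucleostemin (chromosome 14, 31012433 to 31019152, - strand), was at 13.1, 10.2 and 10.5 CPM in controls and at 31.2, 36.4 and 32.9 CPM in knockouts. The groups were far apart, with a log2 change of 1.56 (SE 0.14, adjusted p = 4.56e-05). Nop2, which methylates cytosine in the large subunit RNA, rose by 1.5 (SE 0.14, adjusted p = 6.15e-05), from 12.0, 11.6 and 9.29 CPM to 33.9, 31.2 and 28.3 CPM.

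Bop1, Pes1 and Wdr12 form the PeBoW complex, which is needed for processing of the large subunit precursor. Bop1 was at 9.71, 10.4 and 12.0 CPM in controls and at 29.9, 28.9 and 26.1 CPM in knockouts. Its lowest knockout was more than its highest control, with a log2 change of 1.41 (SE 0.13, adjusted p = 6.28e-05). Pes1 rose by 0.98 and Wdr12 by 0.90, so all 3 subunits were called.

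Ebna1bp2 and its partner Rrs1, which helps bring ribosomal proteins into the particle, rose by 1.12 and 0.62. Nip7, Nop16 and the stalk assembly factor Mrto4 rose by 1.33, 1.26 and 1.24. The GTPase Gnl2 rose by 0.88, Noc2l, a factor for movement of the particles out of the nucleolus, by 0.80, and Rrp1 by 0.44. The call of Rrs1 was lost without control 1 (0.52 to 0.71 with 1 library left out) and that of Rrp1 without control 2 (0.40 to 0.49). Exons of Samd11, which was not tested, cover 20.9% of those of Noc2l on the other strand.

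Rrp1b, the paralog of Rrp1, was not called. It was at 8.05, 6.45 and 8.94 CPM in controls and at 11.4, 8.13 and 9.66 CPM in knockouts, and knockout 2 was within the controls. The log2 fold change was 0.31 (SE 0.18, adjusted p = 0.206).

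Brix1, which works in the assembly of the large subunit with Ebna1bp2, was at 7.52, 8.33 and 13.6 CPM in controls and at 12.5, 8.88 and 10.6 CPM in knockouts. Control 3 was its highest library of all 6, and the log2 change of 0.14 (SE 0.23, adjusted p = 0.671) was not called.

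**Figure D2:**
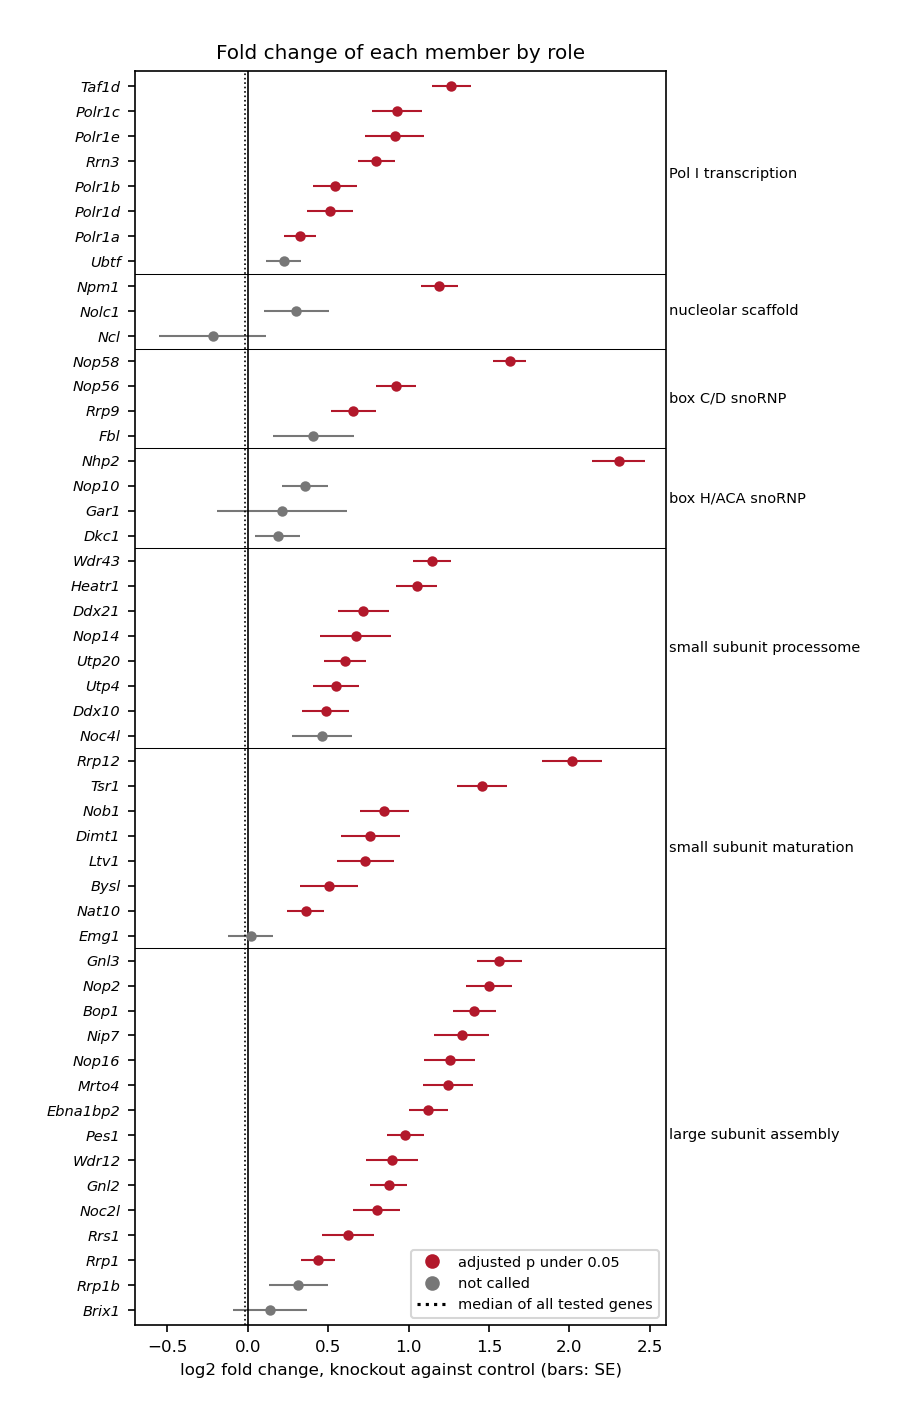
Log2 fold change of each of the 50 genes, knockout against control (horizontal axis), by role, with bars of 1 SE from edgeR. Red points are the 39 genes called higher and grey points the 11 not called; 49 points lie to the right of the dotted line, the median of all tested features at -0.01.

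Genes of the same particle or complex did not move by the same amount. Ratios of counts between partners within a library do not depend on scaling, and 11 such pairs were formed. The pairs were chosen after the values were seen, so they are given without a test. Nhp2 had 0.301, 0.364 and 0.337 counts per count of Dkc1 in the controls and 1.48, 1.45 and 1.38 in the knockouts. The ratio to Nop10 went from 0.200, 0.216 and 0.302 to 1.03, 0.856 and 0.803. Nhp2 thus had fewer counts than either partner in the controls, and more than Dkc1 in every knockout.

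For the box C/D proteins, the ratio of Nop58 to Nop56 was 1.28, 1.09 and 1.20 in controls and 1.82, 1.89 and 2.15 in knockouts. The ratio of Nop58 to Fbl was 3.40, 2.81 and 1.91 in controls and 4.52, 6.98 and 7.87 in knockouts. Both ratios were higher in every knockout than in any control. In the PeBoW complex, Bop1 to Pes1 went from 0.581, 0.623 and 0.613 to 0.854, 0.819 and 0.764, also without overlap, while the ratios of Bop1 to Wdr12 overlapped.

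Within Pol I, the ratio of Polr1a to Polr1b was lower in every knockout, at 3.65, 4.11 and 4.31, than in any control, at 4.81, 4.50 and 4.60. That of Polr1c to Polr1d was higher, at 0.479, 0.527 and 0.511 against 0.379, 0.315 and 0.454. The paralogs Rrp1 and Rrp1b had ratios of 5.48, 6.26 and 4.65 in controls and 5.12, 7.34 and 5.48 in knockouts. These overlapped, although only Rrp1 was called. For Npm1 to Ncl the controls were spread from 0.433 to 1.30 and the knockouts from 1.39 to 2.56.

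**Figure D3:**
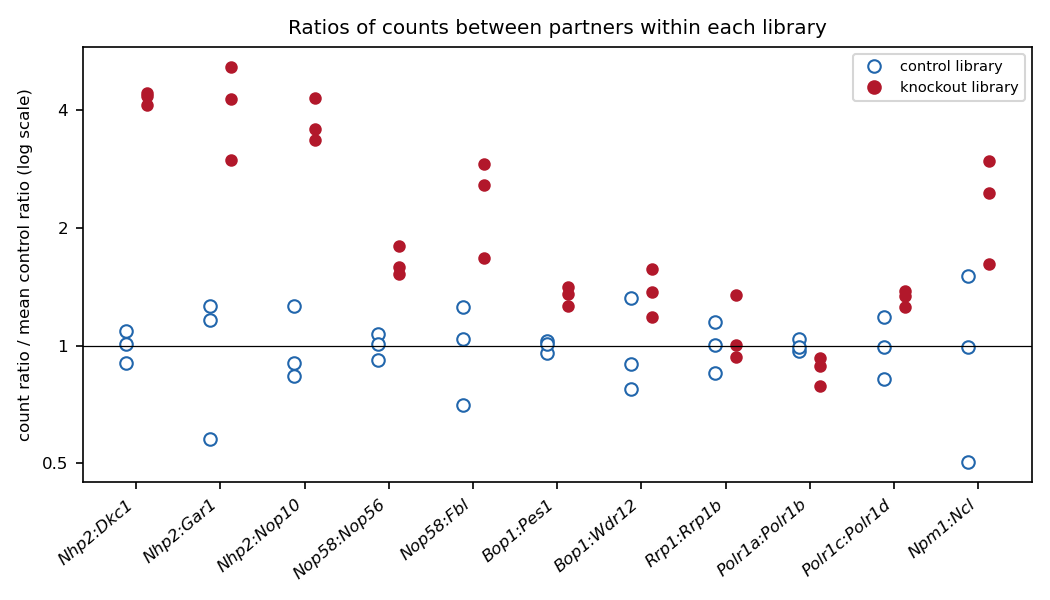
Ratio of counts between 2 partner genes in each library, divided by the mean ratio of the 3 controls (log axis), for 11 pairs. Open circles are controls and filled circles knockouts; the 3 knockouts lie above all controls for the pairs of Nhp2 with Dkc1, Gar1 and Nop10, and below them for Polr1a to Polr1b.

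Levels per kilobase of merged exons, after Npm1, were highest in controls for Nop10 at 13.5, Rrp1 at 12.6 and Rrn3 at 10.1 CPM per kb. They were lowest for Wdr12 at 0.897 and Dimt1 at 0.940 CPM per kb. Strongly and weakly expressed genes are both among those that rose, since Npm1 and Wdr12 were called. These values depend on the merged exons of GENCODE M21, which hold every annotated exon of a gene whether or not it is used in heart.

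The libraries of a group differed in a similar way for many of the 50 genes. Knockout 1 was the highest knockout for 35 of them and knockout 3 the lowest for 27. Control 3 was the highest control for 26, made up of 7 of the 11 genes not called and 19 of the 39 called. Knockout 1 was the highest knockout for 8 of those 11 and 27 of those 39. Such orders were not counted over all tested features, so they may not be particular to the 50 genes. The median coefficient of variation was 10.95% in controls and 9.39% in knockouts. Proliferation markers summed to 41.8 to 59.1 CPM in controls and 49.8 to 99.7 CPM in knockouts, and their Mki67 was at 34.0, 14.0 and 10.7 CPM in knockouts 1, 2 and 3 and at 7.75, 16.3 and 8.36 CPM in controls. Of the 10 proliferation markers tested 2 were called higher, Aurka and Top2a, near the 18.7% of all tested features. Aurka was at only 0.226, 0.667 and 0.581 CPM in controls, so it passed the filter on low counts only through the knockouts. The groups of Top2a overlapped. Aurkb, Birc5 and Ccnb2, not called, were also low, with control means of 0.656, 0.626 and 0.877 CPM. The part of dividing cells in the levels of the 50 genes was not tested. Without knockout 1, 37 of the 50 genes were called higher, with a median of 0.67, and 1 proliferation marker was called higher and 1 lower.

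Marker lists of the cell types in a whole heart are read beside the 18.7% of all tested features called higher and the 17.8% called lower. The counts of fibroblast, macrophage, erythroid and atrial markers called higher were near or under that share. Cardiomyocyte markers had 4 of 10 genes lower and 0 higher, and endothelial markers 4 of 11 lower, a count of 1 or 2 without any one of the controls or without knockout 2. Endothelial markers summed to 883 to 962 CPM in controls and 665 to 701 CPM in knockouts. Fibroblast markers had 1 of 10 higher, Postn at 1.69, and summed to 1284 to 1830 CPM in controls and 1775 to 3139 CPM in knockouts. Macrophage markers had 2 of 11 higher and summed to 218 to 240 CPM and 233 to 277 CPM. Smooth muscle and pericyte markers went both ways, 3 higher and 3 lower of 10, with sums of 1709 to 1954 CPM and 1928 to 2528 CPM. Erythroid markers had 1 of 7 higher, a median log2 fold change of 0.81 and sums of 522 to 1795 CPM in controls and 1440 to 2942 CPM in knockouts, which overlapped. Atrial markers had 1 higher and 2 lower of 8 and a median of -0.60. Their sums were 372 to 1521 CPM in controls and 3397 to 4868 CPM in knockouts, which did not overlap. Most of the knockout sums was Nppa, the only one called higher. Nppa was at 751, 193 and 811 CPM in controls and 2945, 4577 and 2966 CPM in knockouts. Tbx5 and Nr2f2 were lower, and Myl7, Sln, Fgf12, Bmp10 and Myl4 were not called. Control 2 was the lowest control for each atrial marker but Nr2f2. The counts of called markers moved with single libraries. Fibroblast markers called higher numbered 3 without knockout 1 or knockout 3. Of the macrophage markers 1 was higher without control 1 or control 3, and 4 atrial markers were lower without control 2. Fibroblast markers called lower numbered 2 without knockout 1 and 1 without control 3, and 1 macrophage marker was lower without knockout 3. Proliferation markers had 5 higher without knockout 3, 0 without control 1 or knockout 2 and 1 without each other library, and erythroid markers 2 higher without control 3 and 0 without control 1, control 2, knockout 2 or knockout 3. The part of these cell types in the rise of the 50 genes was not tested.

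Further genes of the same pathway were counted in lists made for this work, with earlier results of these data known. They come from the same fit and libraries, so they are no separate support for the rise of the 50. Their counts stand beside 18.7% of all tested features called higher. Of 40 other small subunit factors 32 rose and 0 fell, with a median log2 fold change of 0.76, and Wdr75, a further UTPA subunit, rose by 1.31 and Rrp7a by 1.23. Of 43 other large subunit factors 33 rose and 0 fell, with a median of 0.79, among them Nifk, a partner of the proliferation antigen Ki-67, at 1.77, and the rRNA methyltransferase Ftsj3 at 1.5. In the nuclear exosome, which trims the ends of rRNA precursors, 7 of 14 genes rose, with a median of 0.44, Exosc2 by 1.43 and Exosc9 by 0.94. Factors that assemble snoRNPs had 6 of 12 genes higher, including Nufip1 at 0.89 and Pih1d1 at 0.87. That last count was 3 without control 2, without knockout 2, with DESeq2 and in the authors' deposited table, and 1 of these genes was lower without knockout 1.

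Other genes of the polymerases were counted in the same way, beside 18.7% of all tested features called higher and 17.8% lower. Of 13 other Pol I subunits and factors 6 rose, with a median of 0.29, including Twistnb, which forms the stalk of Pol I, at 0.85, and Polr2e, shared by all 3 polymerases, at 0.82. Of 22 Pol III subunits and factors 9 were called higher and 0 lower, with a median of 0.30, or 2 lower without knockout 1. The count called higher was 7 with DESeq2 and in the authors' deposited table, and 6 without knockout 2. Every knockout lay above every control for 10 of the 22 and below every control for 3. Among the 14302 tested features this held for 3741 and 3501. Polr3g, the Pol III subunit typical of growing and undifferentiated cells, was at 2.18, 1.44 and 1.39 CPM in controls and at 7.48, 9.0 and 7.09 CPM in knockouts. It rose by 2.19 (SE 0.23, adjusted p = 0.000124) without overlap. Its paralog Polr3gl, chosen after its values were seen, was at -0.08 (SE 0.21, adjusted p = 0.801). The Pol III subunit Crcp rose by 1.13.

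The MYC network, whose proteins bind E-box letters, had genes called in both directions. Of its 10 tested genes 3 were higher and 3 lower, with a median of -0.21. Myc, a transcription factor known to drive ribosome biogenesis genes, was at 1.96, 1.67 and 3.02 CPM in controls and at 14.5, 7.26 and 7.25 CPM in knockouts, a rise of 2.15 (SE 0.34, adjusted p = 0.00111). Its highest control was control 3, as for 26 of the 50 genes, and its highest knockout was knockout 1, as for 35 of them. How common this order is among all tested features was not counted. A role of Myc in the rise of the 50 genes was not tested. Max, the partner with which MYC binds DNA, fell by 0.85 and Mlxip by 0.89, both calls being lost without TMM scaling. Mlx was at 0.48 (adjusted p = 0.0303), and the count of higher genes was 1 without control 2, control 3 or knockout 2.

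**Figure D4:**
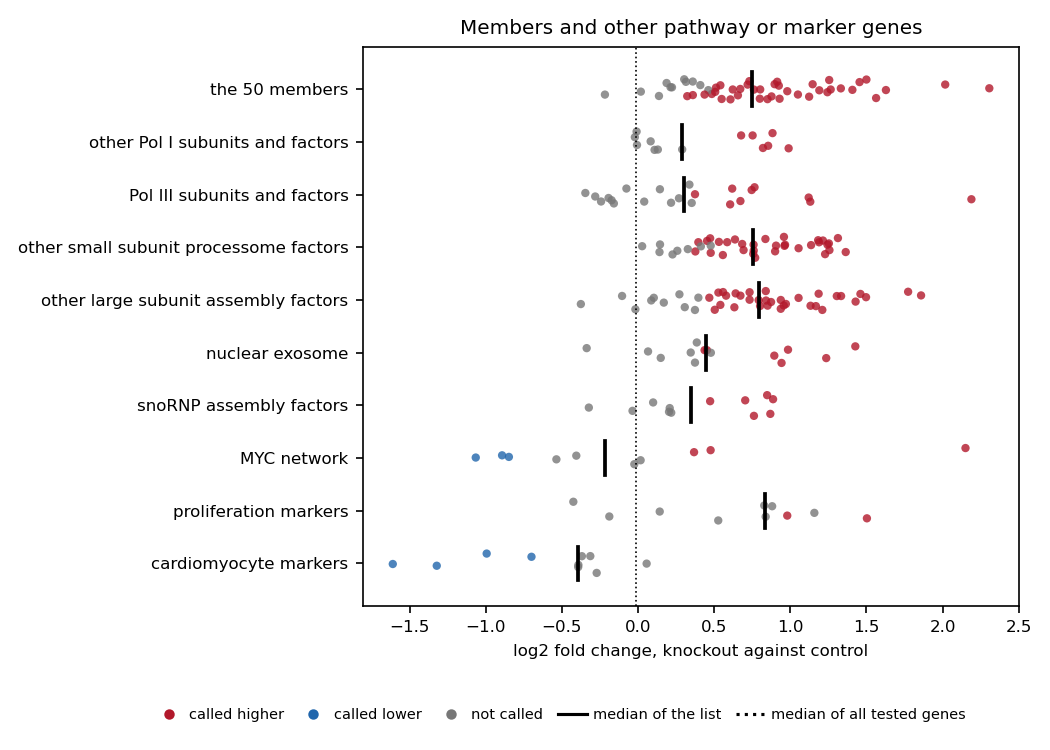
Log2 fold change, knockout against control (horizontal axis), of the 50 genes and of the tested genes of 9 other lists (rows). Each point is a gene, coloured by its call, black ticks are list medians and the dotted line is the median of all tested features. The medians run from -0.39 for cardiomyocyte markers to 0.83 for proliferation markers, with the 50 genes at 0.75. Of the 10 proliferation markers 2 were called higher and 8 were not called, beside 18.7% of all tested features called higher.

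Some of the 50 genes carry small nucleolar RNA genes inside them. Annotated snoRNA genes numbered 29 in 8 of the 50 genes, with 8 in Taf1d, 5 in Nop56, 4 in Nop58, 3 each in Gnl3, Ncl and Wdr43, 2 in Tsr1 and 1 in Dkc1. Of these 8 hosts 6 were called higher, with a median log2 fold change of 1.21, and of the other 42 genes 33 were called, with a median of 0.70. The hosts not called were Ncl and Dkc1. No source used here states how reads over such nested genes were assigned.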

How the data were processed

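Hearts of 6 mice were compared as 3 controls and 3 knockouts, grouped by the sample titles. Counts are whole numbers of reads assigned to a gene in a library, as the authors deposited them, without scaling. The submitters' processing notes name the mm10 build, featureCounts 1.5.1, HISAT2 2.0.5, DESeq2 1.16.1 and SAMtools 1.5, with no options. The authors' deposited table also gives a log2 fold change, its SE and an adjusted p-value for each gene. The series design text gives technical replicates for each mouse, and 1 count column per mouse was used. Libraries of a group differed by more than sampling noise (the lowest chi-square per degree of freedom was 8.93), so each counted as 1 replicate.

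Counts were tested with edgeR 4.0.16 (R 4.3.3) by the quasi-likelihood test, group only, with TMM scaling and filterByExpr at a minimum count of 10. The fit ran over the whole table, after a check on simulated counts. SE is the log2 fold change divided by the square root of F. Levels are CPM. Coordinates and exons come from GENCODE M21 (mm10), which held all 50 identifiers. Near-identical transcripts were sought with blastn 2.17.0 at 95% identity over 100 bases, and motifs by exact letters. Overlaps with other genes are given from 5% of exon bases.

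In each role, up to 3 called genes with the smallest adjusted p and all genes not called are given per library. Of other pathway lists up to 2 called genes per direction are named. Genes named outside this rule were picked with their values known. The 50 genes, roles and lists were chosen with earlier results of these data known. The alternatives tried were DESeq2 1.42.0, limma-voom (limma 3.58.1), a robust fit, the authors' deposited table, the replicate block, each library left out, other thresholds, no filter, a filter of 50 counts in 3 libraries, and scaling by RLE, by library size alone or by TMM factors without mitochondrial-encoded features. Scaling without Gm42418 and Lars2 was chosen after seeing the data.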

Additional observations from a re-analysis of the deposited data

How the results depend on the processing

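The count of the 50 genes called lower was 0 under every alternative run. The count called higher was 39, 30 to 37 with 1 library left out, lowest without control 2, and 38 or 39 with RLE scaling, TMM without mitochondrial-encoded features, TMM without Gm42418 and Lars2, no filter, a stricter filter, a robust fit, DESeq2 and limma-voom. It was 15 when a log2 fold change of at least 1 was also required, a stricter rule by construction, and 49 with library size alone, under which 8093 features were called higher and 552 lower, against 2671 and 2544. The median log2 fold change of the 50 was 0.67 to 0.82 with 1 library left out and 1.44 with library size alone. Replicate numbers did not pair the samples: the correlation between the 2 libraries of a number, after removal of group means, was -0.251 for number 1, 0.112 for number 2 and -0.131 for number 3. With the replicate block 35 were called, and Polr1a, Nat10, Bysl and Nop14 lost their calls.

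Of the 39 called genes 29 kept the call under all 17 alternatives to the fit and 10 lost it under at least 1, and 0 changed sign. The 10 were Polr1a, Polr1d, Nat10, Bysl, Ltv1, Utp4, Ddx10, Nop14, Rrp1 and Rrs1. Of the 11 not called 4 changed sign, each still not called. With 1 library left out, the log2 fold change of Gar1 ran from -0.17 (without knockout 1) to 0.70, that of Brix1 from -0.026 (without control 1) to 0.44, that of Ncl from -0.49 to 0.32 (without control 3) and that of Emg1 from -0.068 (without control 3) to 0.15. Ncl was at 0.54 with library size alone, and Emg1 at -0.011 with the stricter filter. Outside the 50 genes, Polr3gl ran from -0.21 to 0.14 (without knockout 1) and was at 0.62 with library size alone, where it was called. The cause was not tested. With 3 mice per group and few reads for Gar1, small changes cannot be resolved.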
